A study of Mus musculus with 12 samples.

Results

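Control cells of the study were compared between culture and the transplanted mouse. The 6 libraries compared, 3 of shLuci cells from culture (n = 3) and 3 of shLuci cells reisolated from mice (n = 3), were taken by their labels from the 12 RNA-seq libraries of the series. LSK cells (Lin-Sca-1+c-Kit+) are the bone marrow fraction that holds hematopoietic stem cells (HSCs) and multipotent progenitors. All 6 libraries came from C57BL/6 cells that carried a lentivirus with GFP and an shRNA against luciferase, a gene that mouse cells do not have. The cultured LSK cells had been infected and kept in serum-free medium with cytokines, stem cell factor (SCF) among them, and the cells sorted from this culture at 3 d were GFP+CD48-Sca-1+. The in vivo cells were GFP+ LSK cells sorted from recipients, which the study irradiated lethally, 3 mo after they had received infected LSK cells by the labels. The text of the study gives a longer interval for such cells. The remaining 6 libraries are of cells with an shRNA against *Rad21* (shRad21) from the same settings. None of them is among the libraries compared, and their own comparison is given beside the control one. All 12 libraries were fitted together, so the shRad21 libraries also enter the gene filter, the scaling, and the estimate of spread.

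Technical features went with the setting. The culture libraries were made with the TruSeq RNA v2 kit and the in vivo libraries with SMART-Seq v4 and Nextera XT, the sorted population differed as described, and each setting had its own sequencing lane. Setting, kit, gate, and lane cannot be told apart in these libraries, and no within-batch value could be computed, because each batch holds libraries of 1 setting. Nothing in the labels says whether the libraries of a group came from separate cultures or mice. The p-values therefore measure the spread between libraries within the 4 groups of the fit, shRad21 groups included, which may be technical. Between 15235129 and 23026953 reads per control library were counted on genes, and between 21502 and 26938 genes had at least 1 count. At that depth, 3 counts, the limit that a count of 0 allows, corresponded to between 0.133 and 0.210 CPM (counts per 1000000 counted reads, with library sizes scaled by TMM), a limit for counting error only.

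The gate was checked first. *Kit*, the SCF receptor and a gate gene of the LSK cells put in culture and of the in vivo sort, had 676, 719.6, and 827 CPM in culture and 905, 974, and 851 CPM in vivo, a log2 difference (culture minus in vivo, here and below) of -0.30 (SE 0.08, edgeR adjusted p = 0.00528). *Ly6a*, which encodes Sca-1, had 194, 272, and 228 CPM in culture and 138, 137, and 163 CPM in vivo, so that each culture library was above each in vivo library (0.66, SE 0.21, edgeR adjusted p = 0.0109), but the call was lost without culture replicate 2 (0.54). *Cd48*, against which only the culture gate selected, had 44.1, 33.97, and 29.4 CPM in culture and 301, 253, and 233 CPM in vivo. Its libraries did not overlap, and the log2 difference was -2.88 (SE 0.24, edgeR adjusted p = 4.42e-08). The gate used *Cd48* in the culture sort alone, so its difference is given as a description, and gate and culture cannot be told apart for it. The pan-hematopoietic gene *Ptprc* was higher in culture by 0.52, but with offsets for GC content and exonic length the value was -0.14. The progenitor gene *Cd34* was lower by 0.58 on the log2 scale, whereas the lineage markers *Itgam*, most of whose exonic bases overlap another gene, and *Cd4* did not pass the test and *Ly6g* and *Cd8a* had too few counts for it. In bulk libraries, fewer cells of a type and less RNA per cell cannot be told apart.

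HSCs in marrow divide rarely and sit in a niche that supplies cytokines, lipids, and little oxygen, whereas cytokines in culture drive them into cycle. Growing cells need sugar, lipids, amino acids, and nucleotides, and progenitors express genes of several lineages at a low level before they commit, which is called priming. The comparison asked which of these programs differed in cells that carried no knockdown of a mouse gene, and 56 gene lists of metabolism, protein synthesis, cycle, lineage, and cytokine genes were examined.

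Most genes differed. Of 17050 genes tested with edgeR's quasi-likelihood test, 6332 (37.1%) were higher and 6320 (37.1%) lower in culture with an adjusted p under 0.05. By the stricter test for a difference of more than 2-fold (glmTreat), 2861 (16.8%) were higher and 1901 (11.1%) lower, and these shares are the background for each list. The 3 libraries of each setting did not overlap for 12768 genes (74.9%). Among the called genes, 717 were higher and 768 lower by a fitted difference of at least 8-fold. The median log2 difference of all genes was -0.01, with an interquartile range of -0.71 to 0.91. In the shRad21 libraries, 2528 genes (14.8%) were more than 2-fold higher and 1747 (10.2%) more than 2-fold lower in culture. Of the genes past 2-fold in shLuci cells, 74.7% were past 2-fold in the same direction in shRad21 cells (2196 higher and 1363 lower in both), and these made up 83.25% of those past 2-fold in shRad21 cells. Both comparisons have kit, gate, and lane in common. The difference between settings itself differed between shLuci and shRad21 cells for 796 genes (4.67%). Long genes tended to be higher in culture: the median was 0.53 for the fifth of genes with at least 6760 exonic bases and -0.37 for those of 1594 to 2951 bases. Of the 290 genes named here, 13 share more than 20% of their exonic bases with another gene, and their values are uncertain: *Ccr9*, *Cebpb*, *Bnip3*, *Ube2c*, *Ebi3*, *Ccnd1*, *Ankrd37*, *Rfx5*, *Tnfrsf18*, *Slc6a9*, *Itga10*, *Fosl1*, and *Itgam*.

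**Figure D1:**
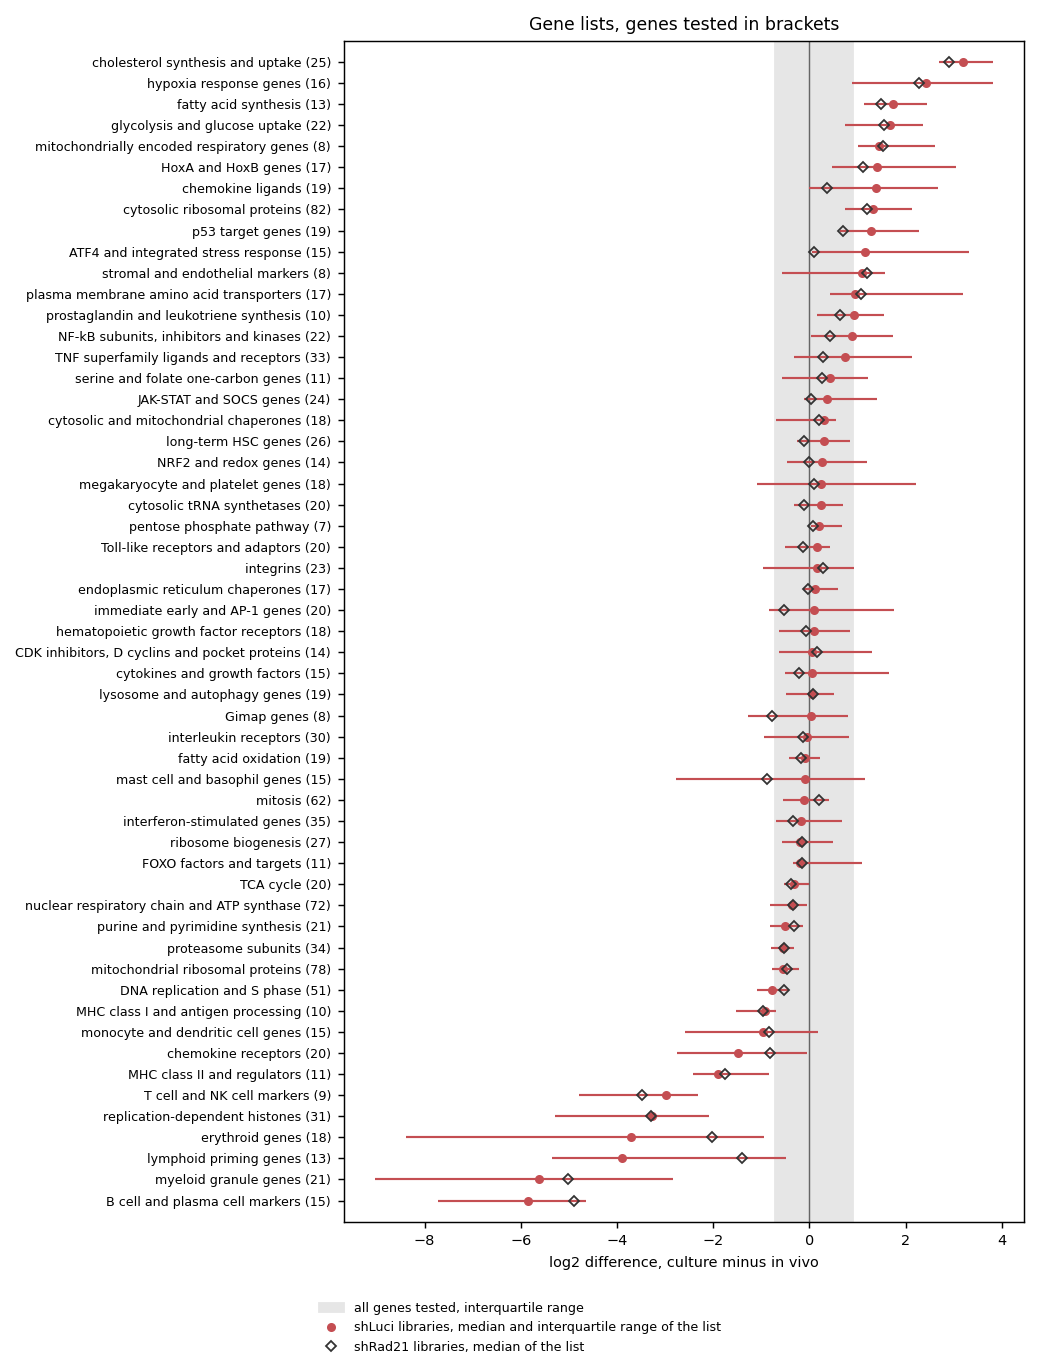
Median log2 difference between culture and in vivo (horizontal axis, culture minus in vivo) for each gene list except the gate genes, with the number of genes tested in brackets. Red points and lines are the median and interquartile range of the list in shLuci libraries, open diamonds the median in shRad21 libraries, and the grey band the interquartile range of all genes tested (-0.71 to 0.91). Cholesterol synthesis stands at the top (3.18), and B cell, granule, and lymphoid lists stand at the bottom. The B cell and granule lists hold genes with no count in culture, whose fitted values enter the median.

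Cholesterol and lipid genes were among the most uniform groups. Of 25 genes of cholesterol synthesis and uptake, 24 were more than 2-fold higher in culture, against 16.8% of all genes, with a median log2 difference of 3.18 (2.90 in shRad21 cells), and the libraries of the settings did not overlap for all 25, against 74.9% of all genes. Their summed level was 8475 to 9091 CPM in culture and 1009 to 1107 CPM in vivo. Cholesterol is made from acetyl-CoA by enzymes whose genes are activated together by SREBP2, encoded by *Srebf2*, when sterols run low. *Hmgcs1*, which makes HMG-CoA, had 1135, 1130, and 1032 CPM in culture and 62.7, 58.8, and 48.9 CPM in vivo, a log2 difference of 4.27 (SE 0.12, edgeR adjusted p = 8.97e-13). All culture libraries lay far above all in vivo libraries for this gene. *Srebf2* itself had 897, 859, and 878 CPM in culture and 204, 191, and 191 CPM in vivo (2.17, SE 0.06, edgeR adjusted p = 1e-12). Further large differences were those of *Lss* (3.93), which closes the sterol rings, and *Stard4* (3.83), a cholesterol carrier. *Ebp*, a sterol isomerase, was the single member lower in culture, with 43.1, 34.5, and 46.5 CPM in culture and 80.6, 65.9, and 73.6 CPM in vivo (-0.83, SE 0.11, edgeR adjusted p = 9.06e-06).

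The promoter of *Hmgcs1* is shown because it held the sterol response element searched for (TCACCCCAC, either strand). Promoter windows were taken from 250 bases before to 50 bases after the RefSeq start on GRCm38.p6, and no motif searched here contains another. The stretch printed here is chr13:119690154-119690273 on the plus strand, and capitals mark the match.
Hmgcs1: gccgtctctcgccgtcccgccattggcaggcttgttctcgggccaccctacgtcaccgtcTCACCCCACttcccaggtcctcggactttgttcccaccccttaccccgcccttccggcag
Of 20 windows of 17 genes of the list, 1 (5.0%) held these letters, compared with 0.551% of all 32851 windows.

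Fatty acid synthesis went the same way, with 12 of 13 genes higher and none lower in culture, 9 of them by more than 2-fold (median 1.73, 1.49 in shRad21 cells). Protein-coding genes past 2-fold, without overlap between settings and with a log2 of the mean CPM of at least 1, were ranked by difference. Of those higher in culture, *Scd1*, the desaturase that makes oleate, had the largest. It lies on chromosome 19 (44394455 to 44407879 of GRCm38) and had 356, 409, and 395 CPM in culture and 1.16, 1.06, and 1.63 CPM in vivo. The in vivo libraries were all near 1 CPM and the culture libraries all above 300 CPM, and the log2 difference was 8.22 (SE 0.16, edgeR adjusted p = 6.99e-14). *Me1*, which supplies NADPH, had 12.3, 14.3, and 12.6 CPM in culture and 0.978, 2.01, and 1.37 CPM in vivo (3.17, SE 0.23, edgeR adjusted p = 1.12e-08). *Scd2* (2.45), *Fads2* (2.49), and fatty acid synthase, *Fasn* (1.73), were also more than 2-fold higher. Fatty acid oxidation genes were divided, with 5 of 19 higher and 9 lower (median -0.09, with -0.15 without culture replicate 1, -0.14 without in vivo replicate 1, and -0.03 without in vivo replicate 3). The exception in size was *Ppard*, a nuclear receptor of fatty acids, with 78.8, 72.04, and 77.1 CPM in culture and 2.53, 1.56, and 2.74 CPM in vivo (5.04, SE 0.22, edgeR adjusted p = 4.69e-11).

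Glycolysis and glucose uptake genes were higher in culture for 20 of 22 genes, 14 of them by more than 2-fold, with a median of 1.68 (1.56 in shRad21 cells) and a summed level of 12280 to 12770 CPM against 4172 to 4325 CPM in vivo. The glucose transporters *Slc2a1* and *Slc2a3* had 330.3, 257, and 298 CPM in culture and 57.6, 61.8, and 68.8 CPM in vivo, and 721, 739, and 907 CPM in culture and 116, 119.7, and 110.2 CPM in vivo, respectively, and log2 differences of 2.23 (SE 0.10, edgeR adjusted p = 4.42e-11) and 2.77 (SE 0.13, edgeR adjusted p = 8.39e-11). The hexokinases, which trap glucose in the cell, moved in different directions. *Hk2* had 289, 260, and 397 CPM in culture and 20.8, 20.6, and 23.7 CPM in vivo (3.86, SE 0.17, edgeR adjusted p = 4.43e-11), and *Hk1* 424, 477, and 587 CPM in culture and 379, 379.9, and 352 CPM in vivo (0.42, SE 0.11, edgeR adjusted p = 0.00273), although *Hk1* turned to -0.40 with offsets for GC content and length. *Hk3*, the myeloid form, had 35.5, 43.2, and 38.6 CPM in culture and 206, 171, and 177 CPM in vivo and was lower in culture in every library (-2.24, SE 0.10, edgeR adjusted p = 4.46e-11). Further along the pathway, *Aldoc* (348, 416, and 387 CPM in culture and 25.96, 22.1, and 20.5 CPM in vivo), *Pgk1* (113, 134, and 99.5 CPM in culture and 12.5, 12.1, and 13.6 CPM in vivo), and *Pkm* (2539, 2545, and 2466 CPM in culture and 621, 600.1, and 589 CPM in vivo) were higher by 4.07, 3.18, and 2.06. *Slc16a3*, which exports lactate, had 331, 262, and 269 CPM in culture and 8.71, 8.66, and 8.92 CPM in vivo, the largest log2 difference of the list (5.03, SE 0.11, edgeR adjusted p = 1.23e-13). The lactate dehydrogenase genes split, with *Ldha* higher by 0.64 and *Ldhb* lower by 1.05 on the log2 scale.

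Genes of the hypoxia response, which HIF factors activate at low oxygen and which include regulators of HIF itself, were higher for 13 of 16 members and lower for 1 (median 2.43, 2.28 in shRad21 cells). Their summed level was 3156 to 3402 CPM in culture and 798 to 902.6 CPM in vivo. *Egln3*, a HIF prolyl hydroxylase, had 842, 840.4, and 819 CPM in culture and 36.3, 31.2, and 28.2 CPM in vivo (4.71, SE 0.12, edgeR adjusted p = 3.11e-13). *Vegfa*, the endothelial growth factor, had 182, 189, and 189.8 CPM in culture and 10.2, 15.5, and 14 CPM in vivo (3.82, SE 0.15, edgeR adjusted p = 1.62e-11), and *Bnip3*, a mitophagy receptor, 125, 130, and 108 CPM in culture and 16.7, 17.9, and 17.4 CPM in vivo (2.804, SE 0.10, edgeR adjusted p = 6.21e-12). The libraries of the settings were far apart for each of the 3 genes. *P4ha2*, a collagen prolyl hydroxylase, had the largest difference of the list (27.4, 30.4, and 29.4 CPM in culture and 0.711, 0.352, and 0.5301 CPM in vivo, 5.74, SE 0.32, edgeR adjusted p = 5.05e-10), and *Pdk1*, which restrains pyruvate oxidation, was higher by 2.04. *Ndrg1* was lower by 0.67 on the log2 scale, and *Car9*, a classical HIF target, had 29.04, 33.8, and 32.8 CPM in culture and 39.03, 29.1, and 30.9 CPM in vivo, with overlapping libraries and a log2 difference of -0.05 that did not pass the test (edgeR adjusted p = 0.727).

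The hypoxia response element core (ACGTG, either strand) was found in 11 of 19 promoter windows (57.9%) of 13 hypoxia genes, compared with 19.6% of all windows. All 8 genes called among the 10 with a match were higher in culture (median 2.75), as were all 3 genes without a match (median 2.04). The promoters of *Bnip3* (chr7:138909555-138909674, minus strand) and *Ankrd37* (chr8:45999851-45999970, minus strand) are shown, both read 5′ to 3′ on the strand of the gene, with the first match on either strand in capitals.
Bnip3: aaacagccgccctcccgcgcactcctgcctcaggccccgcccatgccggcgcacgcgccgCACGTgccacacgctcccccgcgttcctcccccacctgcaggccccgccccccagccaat
Ankrd37: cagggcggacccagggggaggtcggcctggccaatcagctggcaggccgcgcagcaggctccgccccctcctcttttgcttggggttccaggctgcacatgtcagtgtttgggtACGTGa
*Ankrd37*, which shares 26% of its exonic bases with a neighboring gene, had 41.9, 37.97, and 44.6 CPM in culture and 2.36, 1.76, and 3.53 CPM in vivo, a log2 difference of 4.01 (SE 0.22, edgeR adjusted p = 4.65e-10), with no overlap between the settings.

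**Figure D2:**
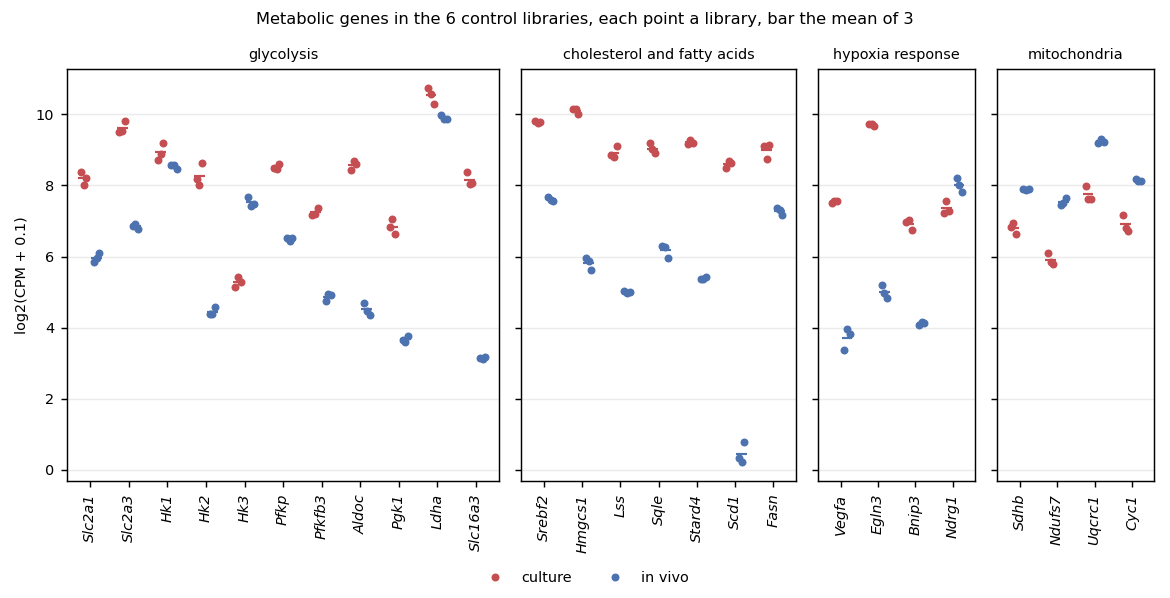
Metabolic genes in the 6 control libraries, with log2(CPM + 0.1) on the vertical axis; each point is a library, red for culture and blue for in vivo, and each bar is the mean of 3. Glucose transport, glycolysis, sterol, and hypoxia genes are mostly higher in culture (*Scd1* by 8.22 on the fitted log2 scale), whereas *Hk3* and the mitochondrial genes *Sdhb*, *Ndufs7*, *Uqcrc1*, and *Cyc1* are lower.

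Genes of mitochondrial respiration were examined next. Of 72 nuclear genes of the respiratory chain and ATP synthase, 13 were higher and 44 lower in culture, 4 and 8 of them by more than 2-fold (median -0.37, -0.35 in shRad21 cells). The largest falls were those of the complex I genes *Ndufb4* (4.28, 3.49, and 3.08 CPM in culture and 11.3, 13.9, and 13.2 CPM in vivo, -1.83, SE 0.18, edgeR adjusted p = 3.5e-07) and *Ndufs7* (68.3, 57.8, and 54.8 CPM in culture and 173, 180.1, and 199 CPM in vivo, -1.61, SE 0.09, edgeR adjusted p = 8.26e-10), followed by the complex III genes *Uqcr11* (-1.61) and *Uqcrc1*, which had 253, 198, and 197 CPM in culture and 586, 638, and 594 CPM in vivo (-1.49, SE 0.09, edgeR adjusted p = 1.01e-09). Members higher in culture included *Atp5l* (2.36), *Atp5k* (1.58), *Cox7a2l* (1.35), and *Uqcrh* (1.202). Of 20 TCA cycle genes, 4 were higher and 12 lower and none passed 2-fold (median -0.33). *Sdhb*, the iron-sulfur subunit of succinate dehydrogenase, which serves both the cycle and the respiratory chain, had 114, 122, and 98.3 CPM in culture and 239.8, 234, and 237 CPM in vivo (-1.09, SE 0.08, edgeR adjusted p = 7.24e-09), and *Sdha* and *Idh3g* were lower by 0.92 and 0.93 on the log2 scale. Mitochondrial ribosomal proteins, which translate the mitochondrial genome, were lower for 58 of 78 genes and higher for 3 (median -0.55), among them *Mrpl55*, lower by 1.62 on the log2 scale. The transcripts of the mitochondrial genome itself were higher in culture for 7 of 8 genes tested (median 1.44), such as *mt-Nd6* (728, 859.5, and 938 CPM in culture and 124, 134, and 133 CPM in vivo, 2.69, SE 0.13, edgeR adjusted p = 1.3e-10) and *mt-Nd2* (2145, 2180, and 2492 CPM in culture and 316, 413, and 403 CPM in vivo, 2.59, SE 0.11, edgeR adjusted p = 2.14e-11). The exception was *mt-Cytb* with 2788, 3118, and 2794 CPM in culture and 2191, 3076, and 2693 CPM in vivo, a difference of 0.13 that did not pass the test (edgeR adjusted p = 0.252). The library kit differed between the settings, and its part in this result was not tested.

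Amino acid transporters were higher for 14 of 17 genes and lower for 2 (median 0.95, 1.08 in shRad21 cells). *Slc7a11*, which imports cystine for glutathione, had 34.5, 42.9, and 19.9 CPM in culture and 0.311, 1.41, and 0.309 CPM in vivo (5.62, SE 0.49, edgeR adjusted p = 8.41e-08), with 1 in vivo library above the other pair but all below culture. The arginine transporter *Slc7a3* (4.52), the serine and alanine transporter *Slc1a4* (3.83), and the glycine transporter *Slc6a9* (3.77) followed, and *Slc43a1* (-1.05) and the glutamine transporter *Slc1a5* (-0.25) were lower. Genes of the integrated stress response, which ATF4 activates when amino acids are short or the endoplasmic reticulum is stressed, were higher for 9 of 15 and lower for 1 (median 1.16), but the median in shRad21 cells was 0.10. *Stc2* had 17.9, 17.9, and 13.5 CPM in culture and 0.0445, 0.101, and 0.353 CPM in vivo (6.55, SE 0.51, edgeR adjusted p = 2.33e-08), *Atf5* 20.3, 34.02, and 16.1 CPM in culture and 0.845, 0.403, and 0.839 CPM in vivo (5.05, SE 0.35, edgeR adjusted p = 6.47e-09), and *Atf4* itself 337, 340.1, and 245 CPM in culture and 128, 138, and 146 CPM in vivo (1.16, SE 0.11, edgeR adjusted p = 1.82e-07). *Chac1* (4.06), which degrades glutathione, and *Ddit4* (3.61), an inhibitor of mTORC1, were also higher. *Asns*, asparagine synthetase, had 88.4, 124, and 53.6 CPM in culture and 29.7, 37.9, and 31.98 CPM in vivo, each culture library above each in vivo library (1.42, SE 0.24, edgeR adjusted p = 8.64e-05), whereas in shRad21 cells its difference was -0.81, and the difference between the constructs passed the test (edgeR adjusted p = 0.00186). *Cebpb* was the member lower in culture (-0.75). The element TTGCATCA, bound by C/EBP-ATF dimers, stood in 4 of 16 promoter windows of the list (25%), compared with 0.895% of all windows.

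Nucleotide synthesis genes were lower for 14 of 21 members and higher for 4 (median -0.50). *Tyms*, thymidylate synthase, had 53.5, 40.02, and 44.6 CPM in culture and 152, 148, and 154 CPM in vivo (-1.72, SE 0.10, edgeR adjusted p = 1.04e-09), and *Umps* of pyrimidine synthesis was lower by 1.202 on the log2 scale. The purine enzymes *Pfas* (1.59) and *Atic* (1.38) were higher. One-carbon genes were divided, 6 of 11 higher and 5 lower, with *Aldh1l2* (3.404) and the mitochondrial enzyme *Mthfd2* (1.502) at the upper end and the cytosolic enzyme *Shmt1* (-0.91) at the lower end. Of 7 pentose phosphate genes, 4 were higher and 1 lower (median 0.20), and only *Rpia*, ribose-5-phosphate isomerase, passed 2-fold, with 84.1, 85.5, and 78.6 CPM in culture and 9.83, 7.65, and 8.53 CPM in vivo (3.25, SE 0.13, edgeR adjusted p = 1.83e-11). Among 14 NRF2 and redox genes, 7 were higher and 5 lower (median 0.26). *Hmox1*, heme oxygenase, had 265, 190.1, and 114 CPM in culture and 10.7, 14.2, and 14.9 CPM in vivo (3.83, SE 0.34, edgeR adjusted p = 8.46e-08), with a wide spread between the culture libraries. Forkhead box O factors restrain growth when insulin and cytokine signals are low: *Foxo4* had 69.01, 73.99, and 76.8 CPM in culture and 0.845, 1.16, and 1.55 CPM in vivo (5.94, SE 0.16, edgeR adjusted p = 5.56e-13) and *Foxo3* was higher by 2.83, whereas their target *Irs2* was lower by 1.395 on the log2 scale, and the list as a whole was divided (4 of 11 higher, 4 lower).

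Genes of protein synthesis and breakdown were also divided by function. Of 82 cytosolic ribosomal protein genes tested, 67 were higher in culture and 4 lower, 42 and 0 of them by more than 2-fold (median 1.31, 1.19 in shRad21 cells), and their summed level was 17650 to 23810 CPM in culture and 6782 to 7116 CPM in vivo. *Rps16* had 97.9, 71.01, and 78.7 CPM in culture and 3.51, 3.27, and 3.76 CPM in vivo (4.55, SE 0.13, edgeR adjusted p = 1.07e-12), and *Rps21* (3.72) and *Rps7* (3.57) were also more than 2-fold higher. Ribosomal protein genes have many near-identical copies in the genome that can take their reads, so single values are uncertain. The median exonic length of the members higher in culture was 1830 bases, and with offsets for GC content and length 70 were higher and 4 lower. Ribosome biogenesis genes did not move together, with 9 of 27 higher and 13 lower (median -0.20, and -0.10 without culture replicate 3): the nucleolar genes *Fbl* (2.42), *Ddx21* (2.07), and *Npm1* (1.59) were higher, and *Myc*, which drives this program, had 344, 395, and 392 CPM in culture and 584, 430, and 527 CPM in vivo and was lower (-0.45, SE 0.10, edgeR adjusted p = 0.000883). Proteasome subunits were lower for 27 of 34 genes and higher for 2 (median -0.54), and none was more than 2-fold higher. Cytosolic and mitochondrial chaperones were higher for 10 of 18 genes and lower for 7, and tRNA synthetases for 11 and 6 of 20. Chaperones of the endoplasmic reticulum, 7 of 17 higher and 3 lower, had opposite extremes in *Hyou1* (1.72) and *Creld2* (-1.699). Lysosome and autophagy genes were higher for 8 of 19 and lower for 8.

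Cell cycle genes gave a mixed picture, in which replication genes were lower in culture and mitosis genes were split. DNA replication begins with the loading of the MCM helicase, encoded by *Mcm2* to *Mcm7*, and runs on polymerases, clamp loaders, and nucleotide supply. Of 51 replication and S phase genes, 43 were lower in culture and 2 higher, and 10 were more than 2-fold lower and none more than 2-fold higher (median -0.78, -0.53 in shRad21 cells). The summed level was 4337 to 4859 CPM in culture and 8375 to 8748 CPM in vivo. The libraries of the settings did not overlap for 44 of the 51, against 74.9% of all genes. *Pold1*, the catalytic subunit of polymerase delta, had 122, 89.8, and 122 CPM in culture and 354, 322, and 319 CPM in vivo (-1.58, SE 0.10, edgeR adjusted p = 2.68e-09). The helicase genes *Mcm5* and *Mcm6* had 245, 193, and 222 CPM in culture and 570, 544, and 539 CPM in vivo, and 435, 426, and 461 CPM in culture and 997, 961, and 948 CPM in vivo, respectively (-1.33, SE 0.11, edgeR adjusted p = 2.65e-08, and -1.14, SE 0.08, edgeR adjusted p = 5.17e-09). All culture libraries were below all in vivo libraries for the 3 genes. Clamp loader genes went both ways: *Rfc3* (-1.55), *Rfc5* (-1.38), and the alternative loader gene *Dscc1* (-1.57) were lower, but *Rfc1* was higher by 0.28. The other higher member was *Pcna*, the clamp itself, with 116, 101, and 103 CPM in culture and 92.6, 88.01, and 89.98 CPM in vivo (0.24, SE 0.08, edgeR adjusted p = 0.00935). Both calls were lost with library size scaling, at 0.10 and 0.07.

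E2F factors activate replication genes at the start of S phase. Their element (TTTCCCGC or TTTGGCGC, either strand) was found in 15 of 47 promoter windows (31.9%) of 40 replication genes, compared with 1.56% of all windows. Of the 15 genes with a match, 12 were lower and none higher (median -0.78), and of the 25 without, 21 were lower and 2 higher (median -0.70). The promoters of *Mcm5* (chr8:75109300-75109419, plus strand) and *Mcm6* (chr1:128359706-128359825, minus strand) are shown as examples from the helicase, with matches in capitals.
Mcm5: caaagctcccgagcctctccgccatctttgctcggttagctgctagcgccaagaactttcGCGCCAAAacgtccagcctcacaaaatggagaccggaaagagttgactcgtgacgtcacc
Mcm6: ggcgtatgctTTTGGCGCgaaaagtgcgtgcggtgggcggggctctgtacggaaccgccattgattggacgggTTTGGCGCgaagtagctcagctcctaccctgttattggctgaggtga

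Mitosis genes encode the kinases, motors, and kinetochore and checkpoint proteins that separate chromosomes. Of 62 genes, 21 were higher and 29 lower in culture, 2 and 1 of them by more than 2-fold (median -0.11, with 0.19 in shRad21 cells). The summed level was 7593 to 8026 CPM in culture and 6973 to 7564 CPM in vivo. *Mki67*, the proliferation antigen that coats mitotic chromosomes, had 847, 806, and 922 CPM in culture and 352, 291, and 287 CPM in vivo (1.47, SE 0.10, edgeR adjusted p = 4.98e-09), and *Kif14*, a kinesin of cytokinesis, 41.9, 46.02, and 52.1 CPM in culture and 13.3, 10.9, and 11.5 CPM in vivo (1.97, SE 0.13, edgeR adjusted p = 5.08e-09). *Anln* (1.04), *Ncapg2* (0.91), and *Cenpe* (0.88) followed. The kinesin gene *Kif11* had 212, 219, and 234 CPM in culture and 157, 153, and 133 CPM in vivo (0.58, SE 0.10, edgeR adjusted p = 8.9e-05). At the other end, *Spc24* of the kinetochore had 34.2, 24.01, and 21 CPM in culture and 95.3, 99.5, and 104 CPM in vivo (-1.93, SE 0.15, edgeR adjusted p = 2.12e-08), and *Bub3* (-1.098), *Kif22* (-1.04), and *Spc25* (-1.03) were lower. *Cdc20*, the activator of the anaphase-promoting complex, had 80.9, 72.7, and 71.03 CPM in culture and 141, 135, and 142 CPM in vivo (-0.90, SE 0.09, edgeR adjusted p = 5.94e-07), and *Ube2c*, the ubiquitin-conjugating enzyme of the same complex, 74.3, 70.3, and 53.6 CPM in culture and 117, 118, and 117 CPM in vivo (-0.83, SE 0.10, edgeR adjusted p = 4.01e-06). The drivers of mitotic entry *Ccnb1* (-0.91), *Plk1* (-0.61), and *Cdk1* (-0.37) were lower as well. Members higher in culture had a median exonic length of 6957 bases and members lower in culture one of 4338 bases. Without culture replicate 1, the median was -0.068. With offsets for GC content and length, 16 were higher and 29 lower (median -0.16), so the direction of the list rested on small differences, and the part of gene length in the split was not tested.

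Late cell cycle genes carry the CHR element (TTTGAA or TTCGAA, either strand), through which the DREAM complex represses them in quiescent cells. It was found in 45 of 56 promoter windows (80.4%) of 52 mitosis genes, compared with 19.2% of all windows, and the CCAAT box in 71.4%, compared with 37.4%. Genes with a CHR match were higher for 17 of 41 and lower for 18 (median 0.01), and those without for 1 and 6 of 11 (median -0.35). The promoters shown are of 2 genes higher in culture, *Mki67* (chr7:135716418-135716537, minus strand) and *Kif11* (chr19:37376262-37376381, plus strand), and of 2 lower, *Cdc20* (chr4:118437344-118437463, minus strand) and *Ube2c* (chr2:164769809-164769928, plus strand), all with the CHR letters in capitals.
Mki67: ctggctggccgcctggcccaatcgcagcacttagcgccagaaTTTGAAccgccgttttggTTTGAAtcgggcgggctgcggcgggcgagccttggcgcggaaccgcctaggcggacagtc
Kif11: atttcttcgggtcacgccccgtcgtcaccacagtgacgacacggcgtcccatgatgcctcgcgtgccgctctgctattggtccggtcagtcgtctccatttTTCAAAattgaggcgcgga
Cdc20: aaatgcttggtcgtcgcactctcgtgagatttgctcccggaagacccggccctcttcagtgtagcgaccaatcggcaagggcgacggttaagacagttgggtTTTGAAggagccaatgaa
Ube2c: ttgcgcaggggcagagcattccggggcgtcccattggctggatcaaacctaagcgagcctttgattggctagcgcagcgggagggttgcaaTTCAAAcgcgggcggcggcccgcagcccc
The same letters were thus found at genes of either direction.

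**Figure D3:**
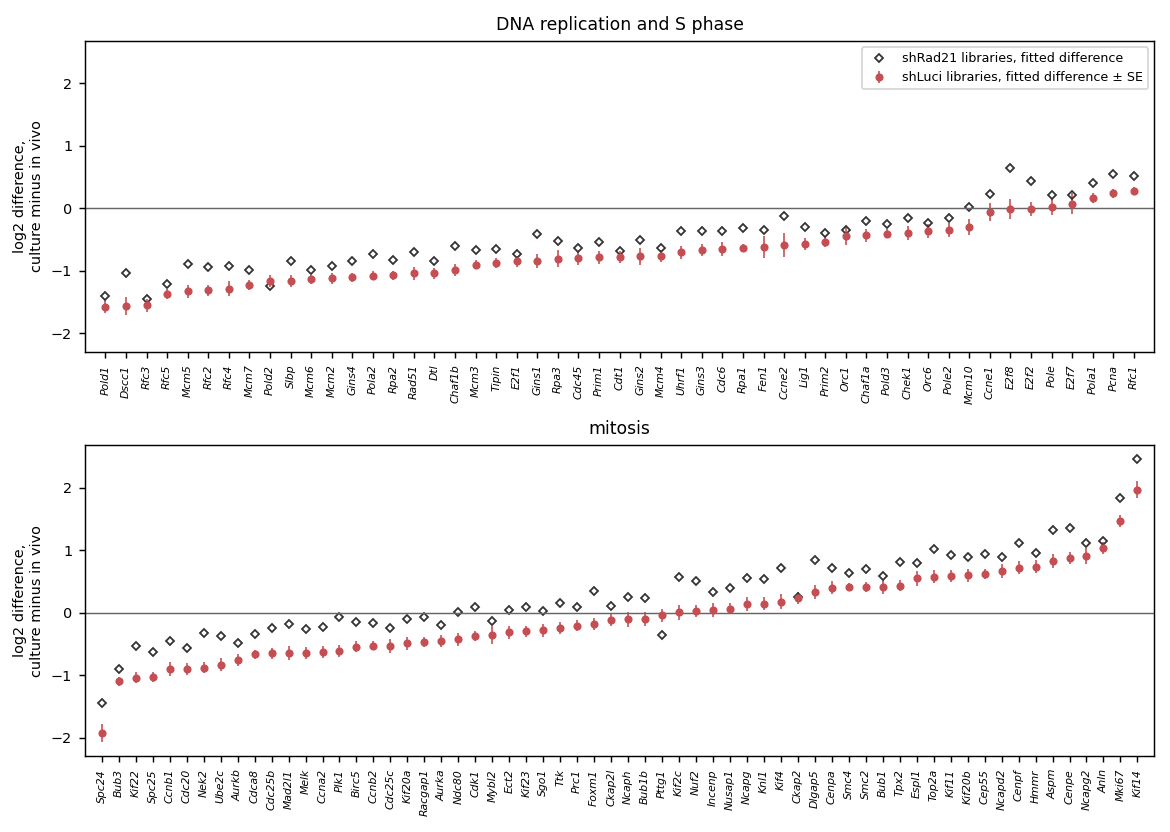
Fitted log2 difference between culture and in vivo (vertical axis) for each tested gene of the replication and S phase list (upper panel) and the mitosis list (lower panel), ordered by the value in shLuci libraries. Red points with bars are shLuci libraries with the SE derived from the test, and open diamonds are shRad21 libraries. In the upper panel most points lie below 0 (median -0.78), and the lower panel runs from *Spc24* (-1.93) to *Kif14* (1.97).

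Inhibitors of cycle entry differed by gene. *Cdkn1a*, which encodes p21, had 165, 184, and 125 CPM in culture and 24.2, 14.3, and 13.8 CPM in vivo (3.17, SE 0.22, edgeR adjusted p = 4.64e-09), and *Cdkn1b*, which encodes p27 and is known from quiescent HSCs, 146, 153, and 181 CPM in culture and 19.9, 15.6, and 16.8 CPM in vivo (3.195, SE 0.12, edgeR adjusted p = 1.06e-11). For both, each culture library was several times above each in vivo library. *Cdkn2c*, which encodes p18, had 17.9, 17.2, and 14.1 CPM in culture and 74.2, 70.5, and 63.3 CPM in vivo and was lower (-2.09, SE 0.11, edgeR adjusted p = 2.44e-10). Of their partners, *Ccnd1* (1.85) and *Rb1* (1.62) were higher and *Ccnd3* (-0.79) and *Cdk4* (-0.77) lower, and the list of 14 was divided (6 higher, 4 lower). p53 targets, which include *Cdkn1a*, were higher for 16 of 19 genes and lower for 1, 11 of them by more than 2-fold (median 1.27, 0.69 in shRad21 cells). *Zmat3*, an RNA-binding growth inhibitor, had 81.8, 126, and 78.4 CPM in culture and 3.56, 3.47, and 6.01 CPM in vivo (4.45, SE 0.21, edgeR adjusted p = 1.09e-10), and the death receptor genes *Eda2r* (3.85), *Tnfrsf10b* (2.94), and *Fas* (2.13) were higher. *Mdm2*, the feedback inhibitor of p53, had 107, 126, and 119 CPM in culture and 105, 93.1, and 109 CPM in vivo with overlapping libraries (0.20, SE 0.08, edgeR adjusted p = 0.0465), a call that was lost under most alternatives, and the repair gene *Xpc* was lower (-0.75). Replication-dependent histone genes were lower for 25 of 31 tested and higher for 3 (median -3.27, or -3.07 with the gene that had no count in culture at its bound), such as *Hist1h4d* (0.491, 0.462, and 0.327 CPM in culture and 66.3, 64.6, and 66.8 CPM in vivo, -7.28, SE 0.20, edgeR adjusted p = 6.24e-13), whereas *Hist3h2ba* (1.499) was higher. Among the histone genes with 10 counts in every library, the median was 0.12. Most of these mRNAs have no poly(A) tail, the library kit differed between the settings, and its part in the result was not tested.

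Genes of long-term HSCs were compared next, since the study uses both settings to follow stem cell function. Of 26 genes, 13 were higher and 7 lower in culture, 4 and 2 by more than 2-fold (median 0.31, -0.11 in shRad21 cells). The surface markers of HSCs did not pass the test: *Procr*, which encodes EPCR, had 97.98, 72.1, and 70.8 CPM in culture and 63.3, 82.4, and 104 CPM in vivo, with overlapping libraries (-0.06, SE 0.18, edgeR adjusted p = 0.797), and *Slamf1*, which encodes CD150, 11.01, 16.4, and 13.5 CPM in culture and 10.98, 10.7, and 12.02 CPM in vivo (0.28, SE 0.16, edgeR adjusted p = 0.12). This does not show equal levels. The transcription factor genes *Mecom* and *Hlf*, which maintain HSCs, had 98.4, 99.2, and 109.8 CPM in culture and 83.9, 93.1, and 66.8 CPM in vivo, and 352, 327, and 427 CPM in culture and 238, 296, and 290.1 CPM in vivo, respectively (0.33, SE 0.10, edgeR adjusted p = 0.00821, and 0.42, SE 0.13, edgeR adjusted p = 0.008). With offsets for GC content and length, *Mecom* turned to -0.38 and *Hlf* lost the call (0.09). *Fgd5*, a marker restricted to HSCs, had 64.3, 74.7, and 97.9 CPM in culture and 17.2, 21.5, and 21.3 CPM in vivo (1.98, SE 0.17, edgeR adjusted p = 6.01e-08), and *Msi2*, an RNA-binding protein of HSCs, 444, 512, and 496 CPM in culture and 95.4, 68.7, and 92.3 CPM in vivo (2.498, SE 0.13, edgeR adjusted p = 1.93e-10). *Ctnnal1* (1.81) and *Ifitm1* (1.26) were the other members more than 2-fold higher. The angiopoietin receptor gene *Tek* was lower by 0.93, *Rbpms* by 0.76, and *Meis1* by 0.68 on the log2 scale, and *Gprc5c*, near the detection limit in culture, had 0.2104, 0.205, and 0.187 CPM in culture and 0.222, 1.26, and 1.37 CPM in vivo (-2.21, SE 0.64, edgeR adjusted p = 0.00582). With offsets for GC content and length, 8 of the 26 were higher and 9 lower (median 0.02), so the list as a whole had no clear direction.

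Hox genes of the A and B clusters specify identity along the hematopoietic hierarchy and are active in HSCs. Of 17 tested, 13 were higher in culture and none lower, 7 by more than 2-fold (median 1.41, 1.11 in shRad21 cells). The summed level of the list overlapped between the settings, with 208.0 to 252.4 CPM in culture and 183.0 to 211.8 CPM in vivo. Its most abundant member was *Hoxa9*, described below. *Hoxb4*, known to expand HSCs when overexpressed, had 14.3, 12.6, and 18.3 CPM in culture and 1.47, 1.11, and 1.15 CPM in vivo (3.59, SE 0.21, edgeR adjusted p = 7.54e-10), and *Hoxb9* 4.28, 4.11, and 3.27 CPM in culture and 0.445, 0.201, and 0.133 CPM in vivo (3.86, SE 0.49, edgeR adjusted p = 4.11e-06). *Hoxb8* had 3.51, 2.26, and 3.55 CPM in culture and 0, 0.0503, and 0.0884 CPM in vivo, which amounted to a ratio of summed counts per library size of 66.8 (exact 95% counting interval 22.5 to 327). *Hoxa9*, a driver of leukemia, had 93.1, 84.9, and 103 CPM in culture and 102, 99.2, and 117 CPM in vivo and did not pass the test (-0.18, SE 0.09, edgeR adjusted p = 0.0722).

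Lymphoid priming genes, which mark the LSK cells that begin to commit to lymphocytes, were lower for 10 of 13 genes and higher for 3, 9 and 2 of them by more than 2-fold, with a median of -3.89 in shLuci and -1.39 in shRad21 cells. *Flt3*, the receptor that defines lymphoid-primed progenitors, had 211, 191, and 168 CPM in culture and 688, 704, and 704 CPM in vivo (-1.88, SE 0.16, edgeR adjusted p = 7.47e-08). *Dntt*, which encodes terminal transferase, had 29.04, 11.6, and 14 CPM in culture and 693, 511, and 398 CPM in vivo (-4.91, SE 0.39, edgeR adjusted p = 2.43e-08), and *Rag2* of the V(D)J recombinase 0.0701, 0.103, and 0.187 CPM in culture and 14.9, 12.4, and 13.8 CPM in vivo (-6.702, SE 0.38, edgeR adjusted p = 6.95e-10). *Il7r*, the IL-7 receptor, had 0.281, 0.154, and 0.0933 CPM in culture and 6.14, 13.5, and 12.02 CPM in vivo (-5.95, SE 0.70, edgeR adjusted p = 2.02e-06). For the 4 genes, no culture library reached an in vivo library. *Notch1* (1.51), *Ikzf1* (1.15), and *Bcl11a* (0.36), transcriptional regulators also used in HSCs, were higher, but *Bcl11a* turned to -0.36 with offsets for GC content and length. CD48 marks many of these primed progenitors, and the culture gate removed CD48+ cells, so that the gate moved with this list, and its part in the result was not tested.

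Myeloid granule genes were lower for 20 of 21 members and higher for none, 19 by more than 2-fold (median -5.61, or -4.65 with the 3 genes without counts in culture at their bound, and -5.02 in shRad21 cells), and their summed level was 229.7 to 302.4 CPM in culture and 2394 to 2841 CPM in vivo. *Mpo*, myeloperoxidase, had 20.9, 29.5, and 11.1 CPM in culture and 1479, 1296, and 1004 CPM in vivo (-5.95, SE 0.32, edgeR adjusted p = 3.67e-10), and *Elane*, neutrophil elastase, 0.772, 0.359, and 0.14 CPM in culture and 183, 245, and 185 CPM in vivo (-9.04, SE 0.26, edgeR adjusted p = 9.98e-13). The late granule genes *S100a8*, *Chil3*, and *Fcnb* had no count in any culture library. *S100a8* had 26.5, 44.2, and 44.3 CPM in vivo and was at least 182-fold lower in culture, *Chil3* at least 92.5-fold, and *Fcnb* at least 18.3-fold, with 3 counts per library as the floor. *Ngp* had 1 count in culture and 47.2, 84.4, and 91.5 CPM in vivo (count ratio 4083, exact 95% counting interval 733 to 161300). *Prtn3* (-1.93) and *Lyz2* (-1.75) were lower by less. *Gfi1*, which encodes a transcriptional repressor, had 37.5, 28.5, and 36.3 CPM in culture and 69.5, 66.7, and 75.8 CPM in vivo (-1.05, SE 0.13, edgeR adjusted p = 2.88e-06). Its value in shRad21 cells had the opposite sign (0.90, edgeR adjusted p of the difference between constructs = 4.78e-05). *Lcn2* did not pass the test, with 10.7, 22.6, and 4.2 CPM in culture and 9.602, 17.5, and 18.8 CPM in vivo and overlapping libraries.

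Monocyte and dendritic cell genes were lower for 7 of 15 genes and higher for 3. The median of -0.97 became -1.69 without culture replicate 1 and -0.57 without culture replicate 3. *Ly6c2* had 0.491, 0.462, and 0.233 CPM in culture and 33.2, 61.3, and 45.8 CPM in vivo (-6.91, SE 0.30, edgeR adjusted p = 4.36e-11), *Irf8* (-2.43), a transcription factor of the lineage, was lower, and the Fc receptor gene *Fcgr1* was higher (4.17). Mast cell and basophil genes were divided, 6 of 15 lower and 5 higher. *Prss34* (-6.66), *Fcer1a* (-6.17), *Hdc* (-3.94), and *Cpa3* (-2.58) were lower, and *Gzmb*, granzyme B, was higher with 20.3, 71.8, and 94.8 CPM in culture and 2.53, 0.604, and 1.06 CPM in vivo and a wide spread in culture (5.46, SE 0.78, edgeR adjusted p = 1.49e-05).

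Megakaryocyte and platelet genes, part of which HSCs with a platelet bias express, were higher for 8 of 18 genes and lower for 7 (median 0.25). *Pf4*, the chemokine of platelet granules, had 332, 373, and 311 CPM in culture and 17.4, 22.2, and 33.9 CPM in vivo (3.79, SE 0.26, edgeR adjusted p = 4.72e-09). *Itgb3*, the beta chain of the fibrinogen receptor, had 178, 245, and 287 CPM in culture and 27.4, 18.8, and 24.2 CPM in vivo (3.33, SE 0.20, edgeR adjusted p = 1.3e-09), whereas its partner *Itga2b* had 198, 249, and 313 CPM in culture and 259.7, 209.5, and 176 CPM in vivo and did not pass the test (0.24, SE 0.19, edgeR adjusted p = 0.266). *Vwf*, von Willebrand factor, had 66.4, 64.7, and 98.2 CPM in culture and 15.1, 15.8, and 16.5 CPM in vivo (2.28, SE 0.16, edgeR adjusted p = 7.48e-09), but a difference of -0.08 in shRad21 cells, and the difference between constructs passed the test (edgeR adjusted p = 4.78e-05). *Gp5* had 4.91, 4.67, and 6.07 CPM in culture and 28.1, 22.5, and 25.2 CPM in vivo (-2.27, SE 0.18, edgeR adjusted p = 3.25e-08), and *Selp* (-2.33) and *Clec1b* (-3.004) were lower. Genes of 1 lineage thus lay on both sides, in shares near those of all genes (37.1% higher and 37.1% lower). Erythroid genes were lower for 13 of 18 genes and higher for 3 (median -3.71, -2.03 in shRad21 cells, and 0.01 among members with 10 counts in every library). *Gata1*, the erythroid and megakaryocytic master factor, had 1.33, 3.54, and 4.57 CPM in culture and 41.7, 30.2, and 22.5 CPM in vivo (-3.27, SE 0.41, edgeR adjusted p = 4.36e-06), and its partner *Klf1* 0.912, 0.667, and 0.793 CPM in culture and 9.29, 10.2, and 11.04 CPM in vivo (-3.69, SE 0.27, edgeR adjusted p = 1.15e-08). *Hba-a1* had no count in culture and 10.7, 18.6, and 16.8 CPM in vivo, at least 73.1-fold more. Globin genes share sequence, and the adult beta globin genes gave opposite values, *Hbb-bs* with 0.1403, 0, and 0.14 CPM in culture and 26.8, 68.7, and 52.7 CPM in vivo and *Hbb-bt* with 144, 174, and 134 CPM in culture and 13.3, 24, and 23.7 CPM in vivo, so they are uncertain. *Tfrc*, the transferrin receptor, which cycling cells of any type use, had 365, 340.4, and 323 CPM in culture and 51.8, 52.3, and 44.1 CPM in vivo (2.79, SE 0.09, edgeR adjusted p = 3.3e-12).

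Markers of cells outside the gate moved with these lists. All 15 B cell and plasma cell genes were lower in culture, and all by more than 2-fold. *Igkc*, the kappa constant region, had no count in any culture library and 329, 1317, and 1405 CPM in vivo, at least 4833-fold more. *Jchain* had 0.561, 0.564, and 0.653 CPM in culture and 67.3, 246, and 289.6 CPM in vivo (-8.38, SE 0.61, edgeR adjusted p = 1.04e-08). The summed level of the list was 86.4 to 109.1 CPM in culture and 1310 to 3961 CPM in vivo, lowest in replicate 1, with *Ighm* at 81.1, 58.03, and 59.6 CPM in culture. Of 9 T and NK cell genes tested, 7 were lower and 2 higher (summed 84.9 to 129.9 CPM and 393.5 to 508.1 CPM). Most of the in vivo sum was *Nkg7*, with 402, 316, and 298 CPM. The T cell genes *Cd3d*, *Cd3e*, *Cd3g*, and *Trac* had too few counts for the test, with at most 0.35 CPM in any library. Other T cell receptor genes of the list were tested and lower, with at most 2.72 CPM in vivo. *Nkg7* was lower by 3.51 on the log2 scale, and *Thy1*, which early hematopoietic cells also express, had 31.7, 59.2, and 40.9 CPM in culture and 1.16, 0.906, and 1.37 CPM in vivo (5.25, SE 0.28, edgeR adjusted p = 3.93e-10). Stromal and endothelial genes were higher for 4 of 8 tested and lower for 1, with a sum of 60.4 to 108.2 CPM in culture and 92.3 to 128.3 CPM in vivo. Most of each sum was the PDGF receptor beta gene, with 52.7, 70.6, and 94.4 CPM in culture and 125.5, 87.3, and 85.6 CPM in vivo. Its libraries overlapped and it did not pass the test (edgeR adjusted p = 0.0874). *Cxcl12* had no count in culture and 0.756, 2.87, and 1.33 CPM in vivo. The defining transcripts *Igkc* of plasma cells, *S100a8* of granulocytes, and *Hba-a1* of red cells were thus present in every in vivo library and at 0 in every culture library, and the part of such cells in the lineage results was not tested.

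**Figure D4:**
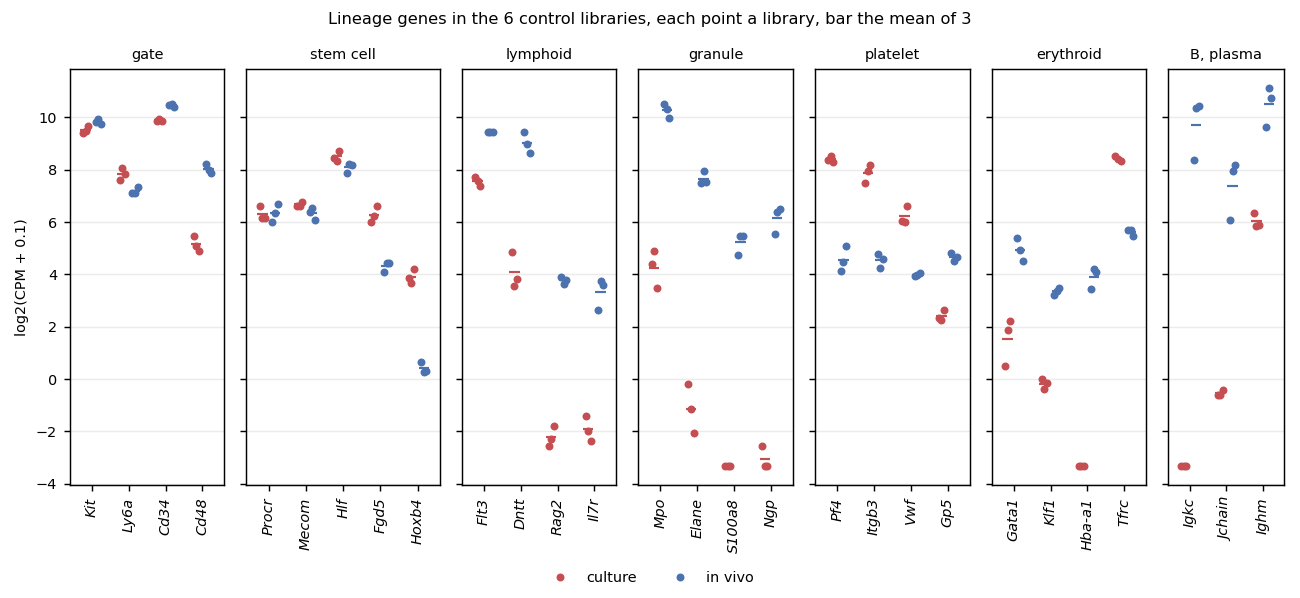
Gate and lineage genes in the 6 control libraries, with log2(CPM + 0.1) on the vertical axis, so that 0 counts lie at the bottom; each point is a library, red for culture and blue for in vivo, and each bar is the mean of 3. The libraries of the settings overlap for *Procr*, lymphoid, granule, and B cell genes are lower in culture (*Elane* with a fitted log2 difference of -9.04), and *Pf4*, *Itgb3*, *Vwf*, and *Tfrc* are higher.

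Cytokine genes differed by gene. Of 15 cytokines and growth factors tested, 6 were higher and 5 lower (median 0.06, whose sign turned under other scalings and which each left-out library moved by more than 1.5 times, to between 0.023 and 0.33). *Tnf*, on chromosome 17 (35199381 to 35202007), had 98.1, 68.6, and 50.03 CPM in culture and 3.38, 3.62, and 3.49 CPM in vivo (4.36, SE 0.22, edgeR adjusted p = 1.47e-10), and *Il1b* 5.75, 6.26, and 3.55 CPM in culture and 0, 0.403, and 0.0442 CPM in vivo (5.14, SE 0.63, edgeR adjusted p = 3.26e-06). *Ebi3* (1.91) and *Lif* (2.04) were higher. *Il18*, *Il7*, *Il12a*, and *Osm* were lower by 1.45, 1.23, 0.90, and 0.54 on the log2 scale, and *Il6* had 0.281, 1.85, and 1.87 CPM in culture and 1.07, 0.0503, and 0.398 CPM in vivo, overlapping and not past the test (edgeR adjusted p = 0.0976). Chemokine ligands were higher for 13 of 19 genes and lower for 4 (median 1.39), 9 of them more than 2-fold higher, whereas in shRad21 cells the median was 0.36. *Cxcl2*, a neutrophil attractant, had 9.47, 6.77, and 3.59 CPM in culture and 0.0889, 0.0503, and 0.0884 CPM in vivo (6.31, SE 0.56, edgeR adjusted p = 9.77e-08), *Ccl5* 34.5, 41.4, and 27.2 CPM in culture and 2.31, 3.07, and 2.92 CPM in vivo (3.63, SE 0.30, edgeR adjusted p = 3.81e-08), and *Ccl3* 144, 120.3, and 93.3 CPM in culture and 19.9, 17.2, and 17.4 CPM in vivo (2.71, SE 0.25, edgeR adjusted p = 1.21e-07). For all 3 the culture libraries stood above the in vivo libraries. *Ccl6* was lower (-1.403), and *Cxcl12* and *Cxcl17* had no count in culture, at least 7.84-fold and 3.53-fold below in vivo. An NF-κB site (GGGACTTTC, GGGAATTTC, or GGGGATTTC, either strand) stood in 1 of 12 promoter windows of the cytokine list (8.3%), a gene that was lower in culture, compared with 0.819% of all windows.

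Receptor genes for the same signals were examined next. Of 20 chemokine receptor genes, 10 were lower, all by more than 2-fold, and 5 higher (median -1.49). *Ccr9* of thymus-seeding progenitors had 1.12, 0.667, and 0.9801 CPM in culture and 8.05, 18.4, and 14.3 CPM in vivo (-3.89, SE 0.45, edgeR adjusted p = 1.51e-06), *Ccr2* of monocytes 1.82, 2.62, and 1.21 CPM in culture and 13.3, 9.11, and 15.7 CPM in vivo (-2.76, SE 0.30, edgeR adjusted p = 8.69e-07), and *Xcr1* was lower by 4.04 on the log2 scale. *Cx3cr1* (2.86), *Ccr10* (3.61), and, by less, the niche receptor *Cxcr4* (0.52) were higher. Interleukin receptors were divided, 11 of 30 higher and 11 lower, near the shares of all genes (37.1% higher and 37.1% lower). Besides *Il7r*, the genes *Il31ra* (-5.38), *Il17rb* (-4.71), and *Il2rb* (-4.03) were lowest, and *Il2ra* (4.18) and *Il10ra* (1.97) were higher. Among 18 growth factor receptors, 8 were higher and 6 lower. The common beta chain *Csf2rb* of the IL-3, IL-5, and GM-CSF receptors had 200, 251, and 255 CPM in culture and 77.6, 56.4, and 57.3 CPM in vivo (1.88, SE 0.17, edgeR adjusted p = 1.45e-07), and its mouse paralog *Csf2rb2* 77.4, 103, and 109 CPM in culture and 8.09, 4.63, and 6.803 CPM in vivo (3.88, SE 0.22, edgeR adjusted p = 7.54e-10). The paralogs share sequence and each value is uncertain to that extent. *Flt3* and *Csf3r* (-0.70) were lower.

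Several cytokine receptors signal through JAK2 and STAT5, which induce the kinases of the PIM family and inhibitors of the SOCS family. Of 24 JAK-STAT and SOCS genes, 12 were higher, 7 by more than 2-fold, and 3 lower (median 0.36, 0.04 in shRad21 cells). *Pim1* had 464, 519, and 601 CPM in culture and 20.6, 15.6, and 16.96 CPM in vivo (4.896, SE 0.16, edgeR adjusted p = 1.91e-12), *Socs2* 131, 109.8, and 111 CPM in culture and 5.69, 8.91, and 18.4 CPM in vivo (3.41, SE 0.31, edgeR adjusted p = 1.35e-07), and *Pim2* 482, 600, and 426 CPM in culture and 80.2, 65.3, and 59.7 CPM in vivo (2.88, SE 0.15, edgeR adjusted p = 2.86e-10). Replicate 3 in vivo had the most *Socs2* of its group, and no in vivo library reached a culture library. *Cish* (1.29), *Bcl2l1* (1.57), *Socs7* (2.23), and *Socs4* (2.19) were higher, and *Pim3* (-0.95) and *Stat5a* (-0.46) lower. The difference of *Pim2* was 0.75 in shRad21 cells (edgeR adjusted p of the difference = 6.8e-05).

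NF-κB subunits, inhibitors, and kinases were higher for 16 of 22 genes and lower for 4 (median 0.89, 0.43 in shRad21 cells). NF-κB factors induce their own inhibitors, which limit the response. *Nfkbiz*, a relative of the inhibitor genes, had 163, 158, and 104 CPM in culture and 15.7, 16.4, and 19.3 CPM in vivo (3.05, SE 0.19, edgeR adjusted p = 2.06e-09). Of the inhibitors, *Tnip1* had 314, 344, and 290.3 CPM in culture and 50.3, 43.7, and 50.8 CPM in vivo (2.71, SE 0.12, edgeR adjusted p = 6.65e-11). *Tnfaip3*, which encodes A20, had 116, 128, and 99.9 CPM in culture and 33.2, 29.6, and 29.6 CPM in vivo (1.89, SE 0.14, edgeR adjusted p = 1.18e-08), and *Nfkbia* was higher by 1.197. Of the subunits, *Nfkb2* (1.96), *Rel* (1.78), *Relb* (1.64), and *Nfkb1* (0.66, but -0.03 with offsets for GC content and length) were higher, and *Rela*, which encodes p65, had 125, 119, and 122 CPM in culture and 208, 201, and 213 CPM in vivo and was lower (-0.77, SE 0.07, edgeR adjusted p = 1.61e-07). The kinase gene *Map3k14* was lower by 0.74 on the log2 scale. TNF superfamily genes were higher for 18 of 33 and lower for 7 (median 0.74, but 0.33 without culture replicate 1 and 0.415 without in vivo replicate 1), from *Tnf*, *Tnfrsf9* (4.33), and *Tnfrsf23* (3.95) at the upper end to *Tnfrsf18* (-1.93) and *Cd27* (69.4, 50.8, and 64.03 CPM in culture and 347, 365, and 357 CPM in vivo, -2.54, SE 0.11, edgeR adjusted p = 3.57e-11), which marks progenitors with lymphoid potential, at the lower end.

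**Figure D5:**
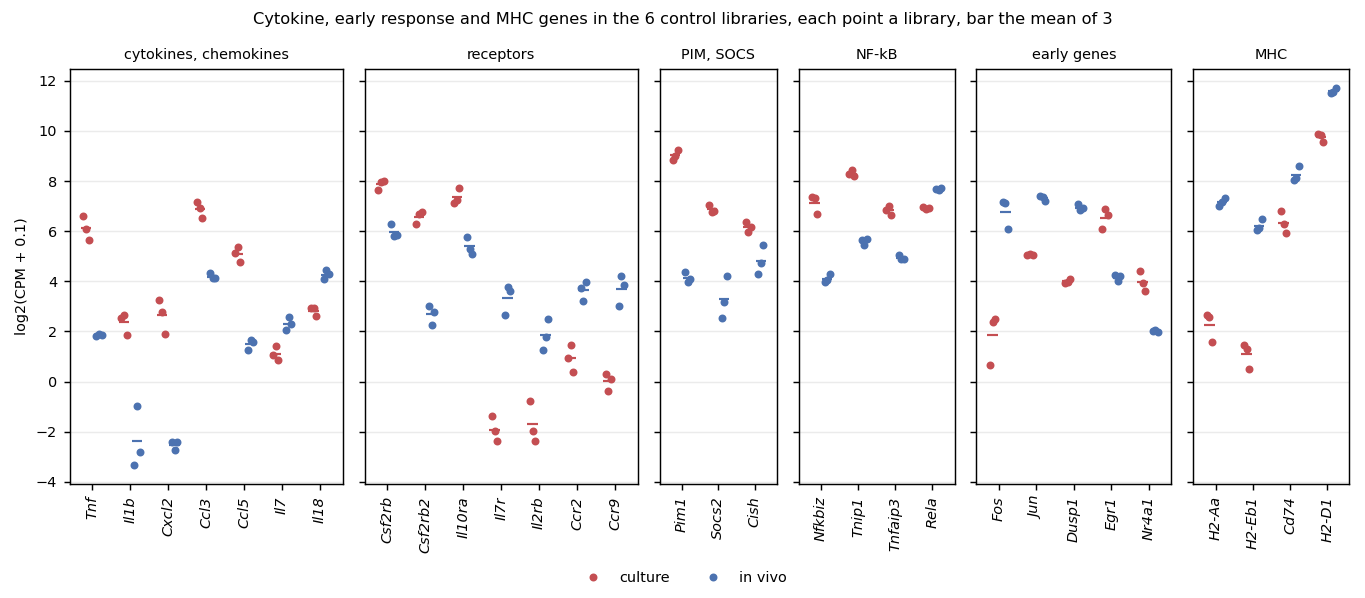
Cytokine, receptor, signaling, early response, and MHC genes in the 6 control libraries, with log2(CPM + 0.1) on the vertical axis; each point is a library, red for culture and blue for in vivo, and each bar is the mean of 3. PIM, SOCS, NF-κB inhibitor, and most ligand genes are higher in culture (*Pim1* by 4.896 on the fitted log2 scale), and *Fos*, *Jun*, *Dusp1*, and MHC genes are lower.

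Immediate early genes, which respond to a stimulus within minutes and also to tissue dissociation and sorting, were divided, with 8 of 20 higher and 9 lower (median 0.10, -0.53 in shRad21 cells, and of opposite sign under other scalings). Without culture replicate 2 the median was 0.058, and without in vivo replicate 3 it was 0.023. *Fos* had 1.47, 5.13, and 5.55 CPM in culture and 143, 138, and 67.5 CPM in vivo (-4.77, SE 0.36, edgeR adjusted p = 1.46e-08), *Jun* 33.5, 34.1, and 32.95 CPM in culture and 170.2, 166, and 147 CPM in vivo (-2.27, SE 0.14, edgeR adjusted p = 1.54e-09), and *Dusp1*, a MAP kinase phosphatase, 15.4, 15.4, and 16.9 CPM in culture and 135, 113, and 121 CPM in vivo (-2.95, SE 0.15, edgeR adjusted p = 2.21e-10). *Fosb* was also lower (-2.31). *Egr1* went the other way with 67.2, 118, and 99.9 CPM in culture and 18.9, 15.9, and 18.3 CPM in vivo (2.43, SE 0.21, edgeR adjusted p = 7.72e-08), as did *Nr4a1* (2.03), *Fosl2* (1.97), and *Fosl1* (2.94), the last with 57% of its exonic bases shared with another gene. Interferon-stimulated genes were higher for 11 of 35 and lower for 15 (median -0.17). The median was -0.405 without culture replicate 2, -0.37 without in vivo replicate 1 or 2, and -0.029 without in vivo replicate 3. *Samd9l* (2.13), *Parp14* (1.98), *Oas3* (1.68), and *Eif2ak2* (1.59) were higher, and *Zbp1* (-1.54), *Cmpk2* (-1.48), *Oasl1* (-1.35), and *Gbp2* (-1.21) lower. Toll-like receptors and adaptors were higher for 3 of 20 and lower for 6. *Ticam1* was higher by 1.42, and *Tlr9* had 1.82, 2.16, and 1.63 CPM in culture and 0, 0.101, and 0 CPM in vivo (count ratio 60.7, exact 95% counting interval 16.4 to 508).

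Most antigen presentation genes of both classes were lower in culture. MHC class II molecules present peptides on professional antigen-presenting cells and a part of LSK cells, under control of the coactivator CIITA. Of 11 class II genes, 8 were lower, all by more than 2-fold, and 1 higher (median -1.91, -1.76 in shRad21 cells). *H2-Aa* had 6.17, 5.85, and 2.85 CPM in culture and 129, 144, and 162 CPM in vivo (-4.904, SE 0.22, edgeR adjusted p = 4.44e-11), and *H2-Eb1* 2.67, 2.36, and 1.31 CPM in culture and 65.6, 68.9, and 88.7 CPM in vivo (-5.18, SE 0.24, edgeR adjusted p = 6.97e-11). *Ciita* (-2.59) and the invariant chain gene *Cd74* (110.3, 78.7, and 60.3 CPM in culture and 263, 279, and 387 CPM in vivo, -1.91, SE 0.21, edgeR adjusted p = 1.15e-06) were lower, and the promoter factor *Rfx5* was higher (0.68). B cells carry these genes as well, and the B cell list was lower too (summed level given above), and its part in this result was not tested. Class I genes were lower for 9 of 10 and higher for 1 (median -0.93): *H2-D1*, whose paralogs can share its reads, had 941, 904, and 756 CPM in culture and 2916, 2981, and 3342 CPM in vivo (-1.83, SE 0.09, edgeR adjusted p = 2.05e-10), the immunoproteasome gene *Psmb8* was lower by 1.77 on the log2 scale, and the class I transactivator gene *Nlrc5* was higher (0.60, but -0.02 with offsets for GC content and length).

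Among the remaining lists, prostaglandin and leukotriene synthesis genes were higher for 6 of 10 and lower for 1 (median 0.92, but 0.51 without culture replicate 3). *Ptgs2*, the inducible cyclooxygenase on chromosome 1 (150100031 to 150108227), had 26.4, 24.7, and 21.4 CPM in culture and 0.0445, 0.101, and 0.265 CPM in vivo (7.39, SE 0.65, edgeR adjusted p = 8.55e-08). The in vivo libraries held 9 counts of it in all. *Alox5* (2.88) and *Ptges* (1.67) were higher and *Tbxas1* lower (-0.98). Integrins were divided, 9 of 23 higher and 6 lower, and their median of 0.16 was 0.25 without in vivo replicate 2 and turned to -0.29 with offsets for GC content and length. Besides *Itgb3*, *Itga10* (3.02), *Itga3* (2.27), and the stem cell integrin *Itga6* (307, 351, and 331 CPM in culture and 141, 122, and 97.1 CPM in vivo, 1.46, SE 0.11, edgeR adjusted p = 1.4e-08) were higher, and *Itgb2l* (-4.05), *Itga2* (-3.31), and the homing integrin *Itgb7* (19.5, 28.6, and 30.6 CPM in culture and 149, 115, and 136 CPM in vivo, -2.34, SE 0.17, edgeR adjusted p = 9.78e-09) were lower. Gimap genes, GTPases of lymphocytes that lie side by side on chromosome 6, went in both directions, 4 higher and 4 lower of 8, with *Gimap8* (1.72) at one end and *Gimap3* (-3.56) and *Gimap7* (-2.77) at the other.

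Of the 10 protein-coding genes with the largest positive differences under the rule for named genes, 9 were *Scd1*, *Fbxo2*, *Slc6a12*, *Mgarp*, *Loxl2*, *Ptgs2*, *Insyn1*, *Lipg*, and *Cabp1*. *Mgarp*, a mitochondrial protein, had 23.1, 21.3, and 13.1 CPM in culture and 0, 0.201, and 0.0442 CPM in vivo (7.85, SE 0.46, edgeR adjusted p = 5.61e-09). *Insyn1* had 23.1, 14.3, and 8.49 CPM in culture and 0.0889, 0.101, and 0.0884 CPM in vivo (7.27, SE 0.47, edgeR adjusted p = 2.9e-09). For *Fbxo2*, *Slc6a12*, *Loxl2*, *Lipg*, and *Cabp1*, the in vivo libraries held 1 to 3 counts in all, and the count ratio, with its exact 95% counting interval, was 331.5 (113 to 1610) for *Fbxo2*, an F-box protein of glycoprotein breakdown, 274.5 (48.8 to 10890) for *Loxl2*, a lysyl oxidase, 170.8 (58.1 to 832) for *Lipg*, endothelial lipase, 161.8 (55.0 to 788) for *Cabp1*, and 301.2 (103 to 1464) for *Slc6a12*. The betaine transporter gene *Slc6a12* had 1.05, 4.87, and 30.7 CPM in the culture libraries, so that replicate 3 held most of its counts. The 10 largest negative differences were those of *S100a8*, *Chil3*, *Ngp*, *Hba-a1*, *Car1*, *Hba-a2*, *Pou2af1*, *Slamf6*, *Slc4a1*, and *Cd177*. All are genes of granulocytes, red cells, or lymphocytes. *Car1*, carbonic anhydrase of red cells, had 1 count in culture and 37.5, 43.3, and 56.2 CPM in vivo (count ratio 2528, exact 95% counting interval 453 to 99870). The others besides *Ngp* had no count in culture: *Hba-a2* was at least 46.2-fold lower, the B cell coactivator gene *Pou2af1* at least 45.0-fold, *Slamf6* at least 33.3-fold, the red cell anion exchanger gene *Slc4a1* at least 25.2-fold, and the neutrophil gene *Cd177* at least 23.4-fold.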

How the data were processed

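RNA-seq gene counts of 12 libraries were analyzed as deposited. Per the labels and the study's methods, the authors sequenced single-end reads on a HiSeq2500, made fastq files with bcl2fastq 1.8.4, checked them with FastQC 0.11.3, removed ribosomal and low-quality sequence, aligned to GRCm38 with TopHat2 2.0.11, and counted reads per gene with HTSeq 0.6.1; the strand setting and annotation release are not given in the sources used here. Of 46078 genes in the table, 45229 were matched to GENCODE M21 for names and positions, and the rest held 0.109% of counts.

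From these counts, all 12 libraries in 4 groups were fitted with edgeR 4.0.16 in R 4.3.3 (TMM, filterByExpr, quasi-likelihood test). The contrast shLuci culture minus in vivo was tested with Benjamini-Hochberg adjustment over 17050 genes, also against 2-fold with glmTreat. Each SE was derived from the test, as the absolute log2 difference over the square root of its F statistic. The fit was also run on simulated data in which a small part of the genes differed, equally in both directions. Most genes differed here, so that run does not test the scaling or the calls of this comparison. Alternatives were DESeq2 1.42.0, other scalings and filters, GC and length offsets, a replicate block, and leaving out each library. Lists were described by counts and medians and given no set test. The 10 largest differences per direction were taken from protein-coding genes past 2-fold, without overlap between settings and with a log2 of the mean CPM of at least 1. Named were gate genes, these 10 per direction, and up to 4 called members per list and direction, with members that define a list. Some of these genes are not reported here. Some further members were chosen after their values were seen. Members and lists were chosen with earlier results of these data known. Promoters were RefSeq sequences of GRCm38.p6.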

Additional observations from a re-analysis of the deposited data

Results flagged for a closer look

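The genes listed here were picked because the difference between culture and in vivo itself differed between shLuci and shRad21 cells (edgeR interaction term, adjusted p under 0.05), among the 290 genes named in the report. There were 59 such genes, and 4.67% of all genes tested passed the same test. The named genes were chosen mostly for their difference in shLuci cells, which favors a larger difference there, so neither their number nor the direction of their values is a result. The value given for each is the log2 difference between settings in shLuci cells minus that in shRad21 cells, so that a positive value means a higher culture level, relative to in vivo, in shLuci cells. No cause was tested. The smallest adjusted p values were those of *Gfi1* and *Vwf* (4.78e-05 for both) and *Pim2* (6.8e-05), by edgeR.

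Among gate, stem cell, and lineage genes, the value was 0.99 for *Kit*, -0.47 for *Cd34*, 0.83 for *Slamf1*, and 0.93 for *Ctnnal1*, and -0.58 for *Hoxa9* and 2.75 for *Hoxb9*. For the lymphoid genes it was -3.36 for *Dntt*, -3.303 for *Rag2*, -3.21 for *Ccr9*, -0.95 for *Cd27*, and -0.87 for *Itgb7*. For the myeloid genes it was -1.96 for *Gfi1*, 0.68 for *Prtn3*, 5.26 for *Lcn2*, 1.63 for *Cebpb*, and 0.93 for *Csf3r*. For platelet and erythroid genes it was 2.35 for *Vwf*, 1.57 for *Itgb3*, 1.51 for *Pf4*, and -2.16 for *Klf1*, and for *Itga6* and *Gimap8* it was 0.97 and 1.94.

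Among NF-κB genes, the value was 1.803 for *Nfkbiz*, 1.29 for *Nfkbia*, 1.11 for *Tnip1*, 0.90 for *Tnfaip3*, and 0.87 for *Nfkb2*. Among cytokine, chemokine, and related genes, it was 4.65 for *Il1b*, 4.603 for *Cxcl2*, 2.32 for *Ccl5*, 1.35 for *Ccl3*, 2.67 for *Ccl6*, 4.92 for *Ptgs2*, and 2.11 for *Tnfrsf23*. For early response genes it was 1.45 for *Egr1*, 1.79 for *Nr4a1*, and 0.70 for *Jun*. For targets of JAK-STAT signals it was 2.13 for *Pim2*, 1.59 for *Cish*, and 0.88 for *Bcl2l1*. *Nfkbia* was higher in culture by 1.197 in shLuci cells and had -0.09 in shRad21 cells, and *Cish* had 1.29 and -0.30.

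Among metabolic genes, the value was 1.44 for *Scd1*, 0.69 for *Fads2*, 0.67 for *Lss*, 0.69 for *Stard4*, 0.84 for *Aldoc*, 0.76 for *Slc2a3*, 2.04 for *Slc1a4*, 0.49 for *Slc1a5*, and 2.23 for *Asns*. Among cycle, growth, and p53 genes, it was -0.46 for *Cdk1*, -0.54 for *Plk1*, -0.51 for *Kif22*, -0.41 for *Spc25*, -0.86 for *Cdkn2c*, 0.97 for *Myc*, 2.26 for *Fas*, and 1.68 for *Eda2r*. *Cdk1* had a log2 difference of -0.37 in shLuci cells and 0.09 in shRad21 cells. Of the largest differences, *Fbxo2* (3.9) and *Loxl2* (5.25) were on the list, both with 1 to 3 counts in the shLuci in vivo libraries.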

How the results depend on the processing

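All counts of calls stayed within 1.5 times their value under DESeq2, upper-quartile scaling, library size alone, no filter, the 6 shLuci libraries alone, GC content and length offsets, the replicate block, and each left-out library, except with a filter of 10 counts in every library. That filter left fewer genes, of which 2889 passed 2-fold, 890 of them lower in culture. With DESeq2, 3618 genes passed 2-fold. Without 1 library, 12180 to 12501 genes were called and 4345 to 4767 passed 2-fold. The median of all genes moved by -0.12 with upper-quartile scaling and by -0.18 with library size alone, and the share higher in culture among genes past 2-fold went from 60.1% to 53.6% and 50.1%, respectively. With offsets for GC content and length it was 54.8%, and with 10 counts in every library 69.2%.

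List medians kept their sign in every run for 42 of 56 lists. Most of the other 14 had medians near 0. The median of endoplasmic reticulum chaperones was -0.057 with library size alone, that of interleukin receptors 0.031 with 10 counts in every library, and that of integrins -0.289 with offsets for GC content and length. The filter of 10 counts in every library, which drops genes near 0 in a setting, also took the erythroid median from -3.71 to 0.01 and the histone median from -3.27 to 0.12, and no filter took the stromal median from 1.10 to -0.52. Without in vivo replicate 1, the stromal median was 0.585. The cause of the other changes was not tested. Of 504 medians recomputed with all 6 control libraries, 166 moved by more than the spread between libraries. A further 4 changed sign, with both values beyond that spread. The medians that moved are given for 9 lists. With upper-quartile scaling, these were glycolysis 1.56, respiratory chain -0.49, cholesterol 3.07, replication -0.90, mitosis -0.23, and NF-κB 0.77. With library size alone they were HSC genes 0.13, glycolysis 1.51, respiratory chain -0.54, cholesterol 3.01, hypoxia 2.25, replication -0.96, mitosis -0.29, and NF-κB 0.71. With offsets for GC content and length they were HSC genes 0.022, glycolysis 1.44, respiratory chain -0.21, hypoxia 2.57, mitosis -0.16, and NF-κB 0.52. With 10 counts in every library, granule genes had -3.34 and hypoxia genes 2.07, and with the 6 shLuci libraries alone, glycolysis had 1.64 and hypoxia 2.11. With DESeq2, granule genes had -5.89. Without 1 library, the median ranged from -5.626 to -5.075 for granule genes, from 1.66 to 1.72 for glycolysis, from -0.84 to -0.68 for replication, and from -0.154 to -0.068 for mitosis.

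Of 280 called genes named in the report, 11 lost the call or changed sign in at least 1 run. With offsets for GC content and length, the log2 difference became -0.36 for *Bcl11a*, -0.40 for *Hk1*, -0.38 for *Mecom*, -0.028 for *Nfkb1*, -0.017 for *Nlrc5*, and -0.14 for *Ptprc*. With the block added, it was -0.36, -0.41, -0.37, -0.028, -0.018, and -0.14. *Hlf*, *Mdm2*, *Pcna*, *Rfc1*, and *Ly6a* lost the call in 1 or more runs with the same sign.

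Replicate numbers did not pair the settings. Deviations of culture and in vivo libraries with the same number correlated at -0.048, 0.029, and 0.003 across genes, and those with different numbers at -0.051 to 0.044. With the number as a replicate block, 12653 genes were called and 4774 passed 2-fold. With the block and the offsets, 12657 were called, and the medians were HSC genes 0.014, glycolysis 1.44, respiratory chain -0.21, hypoxia 2.57, mitosis -0.16, NF-κB 0.52, and integrins -0.29.

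Depth limits statements on genes at 0 to 3 counts in a setting to bounds and count ratios. Only 3 libraries a setting, and 1 kit, gate, and lane per setting, limit all others.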
